A study of Mus musculus with 4 samples.

Results

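The genes described here form the tight junctions, adherens junctions, desmosomes and gap junctions that hold epithelial cells together. They were taken from the expression table by a symbol rule that uses no expression values. The rule itself was set with earlier results of these data known. It took the numbered claudins, zonula occludens (Tjp), desmoglein, desmocollin, plakophilin and cadherin genes, the connexins whose symbols start with Gja, Gjb or Gjc, and Ocln, Marveld2, Marveld3, F11r, Cgn, Jup, Dsp, Epcam, Ctnna1 and Ctnnd1. This gave 78 of the 16857 genes in the table. By family these were 20 cadherins, 17 claudins, 16 connexins, 5 desmogleins, 3 desmocollins, 4 plakophilins, 3 zonula occludens genes, 2 catenins, 2 other desmosome genes and 6 other tight junction genes.

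Expression was measured by bulk RNA sequencing, with 1 library from each of 4 mouse adenoma colonoid lines, which are epithelial structures grown in culture. Lines 75 and 179 were labelled G0 and heterozygous for an allele named LSL-mTERT, and lines 157 and 236 were labelled G2 and homozygous for it. All 4 lines were labelled Apc-null and carried the Apcmin name, so no line with intact Apc is among the controls. The series sets colonoids with little chromosomal instability against others with much of it, without saying in the labels which of these is G0 and which is G2. Nothing in the labels says that the lines came from separate mice, so a p-value here reflects only how much these particular lines vary, which may be technical.

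Tight junctions seal the space between neighbouring cells near the lumen. Claudins and occludin form their strands, some claudins closing the seal and others forming ion-selective pores, while the zonula occludens proteins and cingulin tie the strands to actin. Adherens junctions join cells through E-cadherin and its catenins, and desmosomes do so through desmogleins and desmocollins, which plakoglobin, plakophilins and desmoplakin link to keratin filaments. Connexins form gap junction channels, through which neighbouring cells exchange ions and small molecules.

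The recovered library totals lay between 16545429 and 17901744 counts. Levels are given below as normalized counts, that is, counts divided by each library's size factor, and levels of different junction genes are compared only per kb of transcript, while marker sums are plain sums of normalized counts, not corrected for length. Tert, the catalytic subunit of telomerase, stood at 93.3 and 97.5 normalized counts in G0 and at 0 and 1.0 in G2. The Y-linked transcripts Kdm5d, Eif2s3y, Uty and Ddx3y were at 0 in both G0 libraries and between 296.2 and 526.4 in both G2 libraries, so the effect of sex and that of the group cannot be told apart here. The colon epithelial keratins Krt8, Krt18 and Krt19 were abundant in every library, at 13589.5 to 80371.7. Of the 13 colon epithelium markers tested, 2 were higher and 4 lower in G2 (46.2%, against 10.5% of all genes tested). Markers of other cell types were low: the summed level was 4.9 to 6.1 (G0) and 10.1 to 10.8 (G2) for 7 fibroblast markers, 51.1 to 52.8 and 106.9 to 117.3 for 6 endothelial markers, and 48.1 to 57.9 and 27.2 to 31.3 for 7 neural and glial markers. The smooth muscle sum over 5 markers was 11.2 to 12.8 in G0 and 198.7 to 456.5 in G2. Acta2 stood at 7.9 and 4.1 in G0 and 184.6 and 434.0 in G2, and its part in the results below was not tested. The immune sum over 7 markers was 1132.1 to 2111.8 in G0 and 1179.9 to 1924.6 in G2. Cd68 alone had 1129.2 to 2109.8 normalized counts over the 4 libraries, and Ptprc, carried by nearly all leukocytes, was at 0 in all 4 libraries. Higher in G2 by the test described below were 1 of 2 fibroblast markers tested (Col3a1) and 2 of 4 endothelial markers (Tek and Vwf). So were 1 of 5 smooth muscle markers (Acta2) and 1 of 5 immune markers (Csf1r). Of 3 neural and glial markers tested, 0 passed, and 0 markers of these lists were lower. Over all genes tested 5.93% were higher, and lists of 2 to 5 tested genes are too short to set against that share. The endothelial cadherin Cdh5, itself among the genes described, was at 1.0 in one G0 library and 0 in the others. In bulk libraries, fewer cells of a type and less RNA per cell cannot be told apart.

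Of the 78 genes, 54 averaged 1 normalized count or more and were tested. Of the other 24, 9 had no count in any library and the rest a mean of at most 0.98. In limma's test with Benjamini-Hochberg adjustment over all 13981 genes of the table, 10 junction and cadherin genes were higher in G2, where 5.93% of all genes tested were higher, and 4 were lower, where 4.56% were lower. In all, 14 of 54 (25.9%) passed the threshold of 0.05, against 10.5% of all genes tested. The genes higher in G2 were Cdh1, Cdh13, Cldn8, Cldn23, Ocln, Dsg3, Dsg4, Pkp1, Gja1 and Gjb1, and those lower were Cdh17, Cldn2, Cldn15 and Dsc2. The groups did not overlap, with both G2 values above or both below the G0 pair, for 36 of the 54 (66.7%), 25 of them higher and 11 lower, against 57.8% of all genes tested. The median log2 fold change was 0.16 over the 54 genes and 0.01 over all genes tested. Of the 32 members averaging 100 normalized counts or more, 9 passed. The share over all genes of that level was not worked out, so this count has no background to be read against.

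**Figure D1:**
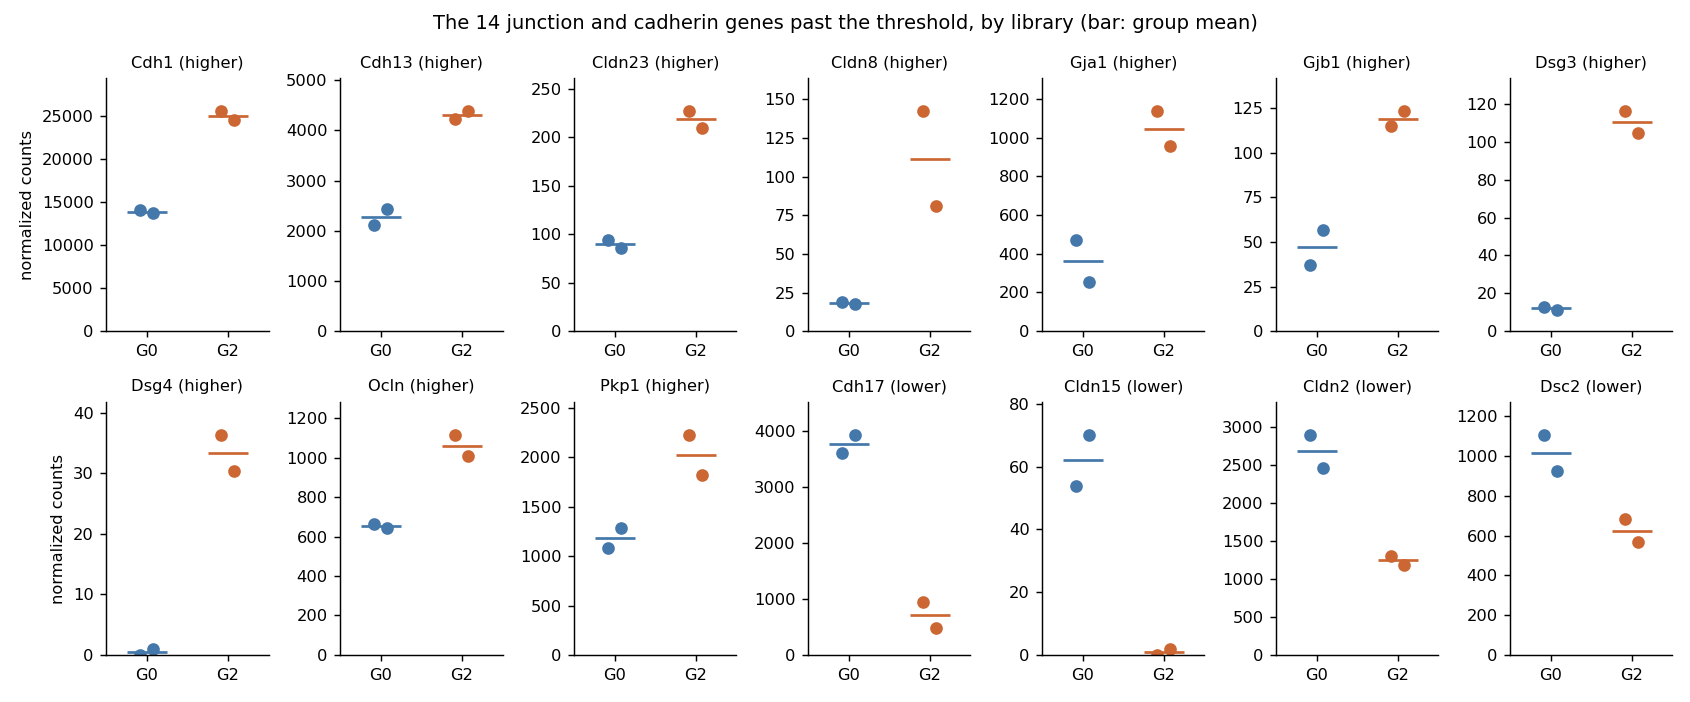
Normalized counts (y axis, linear from 0, with its own scale in each panel) of the 14 junction and cadherin genes past the threshold. Each point is 1 of the 4 colonoid libraries, and the bars are the group means of G0 and G2. For each of the 14 genes both G2 points lie on the same side of both G0 points, above for 10 genes and below for 4.

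Each of these calls rested on all 4 libraries. With any 1 library left out, none of the 14 genes passed (limma adjusted p 0.0909 to 0.307), and 0 to 2 genes of the whole table did. At an unadjusted p under 0.05, these fits had 12 to 14 members higher and 4 to 6 lower, and 17.5% to 23.0% of all genes tested in either direction. All 14 kept their direction in every one of the 13 alternative settings. As their groups did not overlap, only the changes of scaling could have turned it, so this adds little. Without the intensity trend of the test only Cldn8, Cldn15, Cldn23, Dsg3 and Dsg4 passed.

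Claudins set which ions pass a tight junction. Cldn2 forms a pore for sodium and other small cations, and Cldn15 is the other pore-forming claudin of the gut. Both were lower in G2, whereas the abundant claudins Cldn3, Cldn4 and Cldn7 were not called. Promoter windows from RefSeq (GRCm38.p6) exist for 46 of the 78 genes, and 5 of these were called: Cldn2, Cldn15, Gja1, Gjb1 and Ocln. The 250 bases upstream of the annotated gene start are shown for both of the claudins lower in G2, and for Gjb1 because it is the called gene whose window at that start holds a CDX match. They were read 5' to 3' on the plus strand from chrX:139800558-139800807 for Cldn2, chr5:136967619-136967868 for Cldn15 and chrX:101376126-101376375 for Gjb1, with motif matches in capitals.
Cldn2: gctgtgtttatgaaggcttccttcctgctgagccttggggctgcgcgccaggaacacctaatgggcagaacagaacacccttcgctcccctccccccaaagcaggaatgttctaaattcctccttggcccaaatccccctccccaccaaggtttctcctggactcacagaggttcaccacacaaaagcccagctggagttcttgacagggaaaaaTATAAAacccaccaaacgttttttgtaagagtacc
Cldn15: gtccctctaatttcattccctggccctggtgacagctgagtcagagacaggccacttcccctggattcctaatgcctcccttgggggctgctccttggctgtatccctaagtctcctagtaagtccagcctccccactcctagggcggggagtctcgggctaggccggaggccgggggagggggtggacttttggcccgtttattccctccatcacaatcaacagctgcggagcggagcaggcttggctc
Gjb1: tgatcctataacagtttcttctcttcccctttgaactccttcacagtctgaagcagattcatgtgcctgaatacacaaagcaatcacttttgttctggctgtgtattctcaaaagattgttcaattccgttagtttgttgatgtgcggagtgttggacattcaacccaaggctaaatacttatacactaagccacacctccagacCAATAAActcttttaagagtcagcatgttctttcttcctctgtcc

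The windows were searched on both strands for TTTATNG (bound by CDX factors), GTTAAT (an HNF1 site in part), CTTTGAT (TCF and LEF factors), AACNNGTT (GRHL factors), CACCTG (SNAIL and ZEB factors), CAAAGTC (an HNF4 site in part) and TATAAA (the TATA box, added after the windows had been read). Among all 32851 windows of the same length, these letters were found in 9.81%, 6.43%, 3.21%, 3.64%, 17.2%, 3.84% and 12.4%, in that order. The capitals in Cldn2 mark a TATAAA match 35 bases before the start. Those in Gjb1 mark a CDX match on the minus strand 45 bases before the start. The Cldn15 window and the windows at the annotated starts of Gja1 and Ocln held none of these letters. A second Ocln window, at another annotated start, held 2 CACCTG matches, and 2 of the other 3 Gjb1 windows held matches (GTTAAT in one, CACCTG and TATAAA in the other). The windows of Cldn2, Cldn15 and Gjb1 had a GC content of 52.0%, 60.8% and 40.4%, against a median of 52.4% over all windows. A match describes these letters only.

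Cldn2 (chrX:139800808-139811386) stood at 2898.6 and 2467.4 normalized counts in G0 and at 1305.0 and 1186.6 in G2. The groups did not overlap and each pair of lines was close. The level was 2.15-fold lower in G2, with a log2 fold change of -1.10 ± 0.14 (SE, n = 2 and 2) and a limma adjusted p of 0.00551. Cldn15 (chr5:136967869-136975845) stood at 54.0 and 70.1 in G0 and at 0 and 2.0 in G2, so that almost no Cldn15 was counted in G2. With 2 counts in G2, the ratio of G0 to G2 was 63.5 with a 95% exact counting interval of 16.9 to 521 (log2 fold change -5.18 ± 0.65, limma adjusted p = 0.00503). It was 31.7 without G2 replicate 1, and without G2 replicate 2 the G2 level was 0.

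Cldn8 and Cldn23 were higher in G2, both from a low level. Cldn8 (chr16:88560826-88563183), a claudin that tightens junctions in the distal colon and the kidney, stood at 18.7 and 17.3 in G0 and at 142.2 and 81.1 in G2. The lower G2 line was thus well above both G0 lines, though the G2 lines differed from each other 1.75-fold. The difference was 6.22-fold (log2 fold change 2.52 ± 0.38, limma adjusted p = 0.00961). Cldn23 (chr8:35824709-35826559) stood at 94.3 and 86.3 in G0 and at 226.9 and 210.2 in G2. It was 2.42-fold higher in G2, with little spread inside either group (log2 fold change 1.27 ± 0.23, limma adjusted p = 0.0173).

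The summed claudin level per kb did not separate the groups, at 17500 and 18100 in G0 and 17100 and 19500 in G2. Cldn3 made up 38.5% and 45.9% of it in G0 and 43.1% and 44.5% in G2, and Cldn4 30.8% to 37.4% over the 4 libraries. Cldn3 and Cldn4 are widespread epithelial claudins, and their log2 fold changes were 0.09 ± 0.17 and 0.12 ± 0.16 (adjusted p 0.761 and 0.658). The share of Cldn2 was 5.43% and 4.47% in G0 and 2.51% and 2.0% in G2. For each 100 Cldn4 transcripts, per kb, there were 14.5 Cldn2 transcripts in both G0 lines and 6.92 and 5.55 in the G2 lines. Cldn8 reached 0.353% and 0.176% of the claudin sum in G2, so the claudins that were higher in G2 stayed a minor part of it. Of 12 claudins tested, 2 were higher, 2 lower and 8 not called, so that 33.3% passed, against 10.5% of all genes tested. Cldn12, which had a log2 fold change of -0.38 ± 0.18, was among the latter (adjusted p = 0.227), as was Cldn7 at -0.05 ± 0.14. Cldn1, Cldn6, Cldn11 and Cldn18 had at most 7.8 normalized counts in a library, so a difference in them was hard to detect at this depth.

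Occludin, a membrane protein of the tight junction strand, was the only one of the 6 other tight junction genes past the threshold. Ocln (chr13:100496504-100552718) stood at 664.7 and 643.0 in G0 and at 1114.4 and 1006.8 in G2. Both G2 lines lay above both G0 lines, by 1.62-fold in the mean (log2 fold change 0.70 ± 0.14, limma adjusted p = 0.0267). F11r, the junctional adhesion molecule A, stood at 8058.5 and 6780.5 in G0 and 8210.2 and 7551.9 in G2, and Epcam, an epithelial adhesion molecule that binds claudins, at 5994.5 and 6993.8 against 6843.6 and 8669.1. The groups overlapped for both genes. Cgn, the actin-linked protein cingulin, differed 1.12-fold (log2 fold change 0.16 ± 0.12, adjusted p = 0.446). Marveld2 and Marveld3, membrane proteins related to occludin, had log2 fold changes of 0.12 ± 0.14 and -0.09 ± 0.15.

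The zonula occludens scaffolds Tjp1 and Tjp3, which bind claudin tails inside the cell, were not called. Tjp1 stood at 10842.2 and 10128.5 in G0 and at 13421.1 and 10252.6 in G2, and Tjp3 at 2269.2 and 3650.8 against 2431.5 and 2978.3. The groups overlapped for both, with log2 fold changes of 0.16 ± 0.17 and -0.10 ± 0.23 (adjusted p 0.588 and 0.822). Some exons of Tjp3 overlap Apba3, and whether the counting used strand is not stated, so reads of these genes may not have been told apart.

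Among the cadherins, the intestinal cadherin Cdh17 was lower in G2 and E-cadherin was higher. Cdh17 (chr4:11758157-11817905), a cell adhesion protein of the intestinal epithelium, stood at 3600.6 and 3923.0 in G0 and at 952.0 and 477.0 in G2. Both G2 lines were far below both G0 lines and differed 2.0-fold from each other. The mean was 5.26-fold lower (log2 fold change -2.48 ± 0.30, limma adjusted p = 0.00417). Cdh1 (chr8:106603350-106670247), the E-cadherin gene that joins epithelial cells at the adherens junction, stood at 14095.2 and 13727.5 in G0 and at 25575.4 and 24578.3 in G2. The lines of each group were within 1.04-fold of each other and the groups lay 1.80-fold apart (log2 fold change 0.85 ± 0.15, limma adjusted p = 0.0171). Cdh13 (chr8:118140017-119324929), a cadherin held to the membrane by a lipid anchor, stood at 2112.1 and 2430.8 in G0 and at 4225.6 and 4378.0 in G2. It was 1.89-fold higher in G2 (log2 fold change 0.92 ± 0.14, limma adjusted p = 0.00827).

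The summed level per kb was 5420 and 5500 in G0 and 8230 and 7900 in G2. Cdh1 supplied 68.2% and 65.4% of it in G0 and 81.4% and 81.5% in G2, and Cdh17 19.7% and 21.1% in G0 and 3.43% and 1.79% in G2. For each 100 Cdh1 transcripts, per kb, the G0 lines held 28.9 and 32.3 Cdh17 transcripts and the G2 lines 4.21 and 2.2. Cdh13 supplied 10.3% and 11.7% in G0 and 13.6% and 14.6% in G2. Cdh2, the N-cadherin of mesenchymal and neural cells, was near 0, at 2.0 to 2.9 in G0 and 2.0 to 9.1 in G2, and of the 20 cadherins 11 were too low to test. Cdh4 and Cdh15 were also low, at 5.0 to 24.4 and 0 to 2.9.

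**Figure D2:**
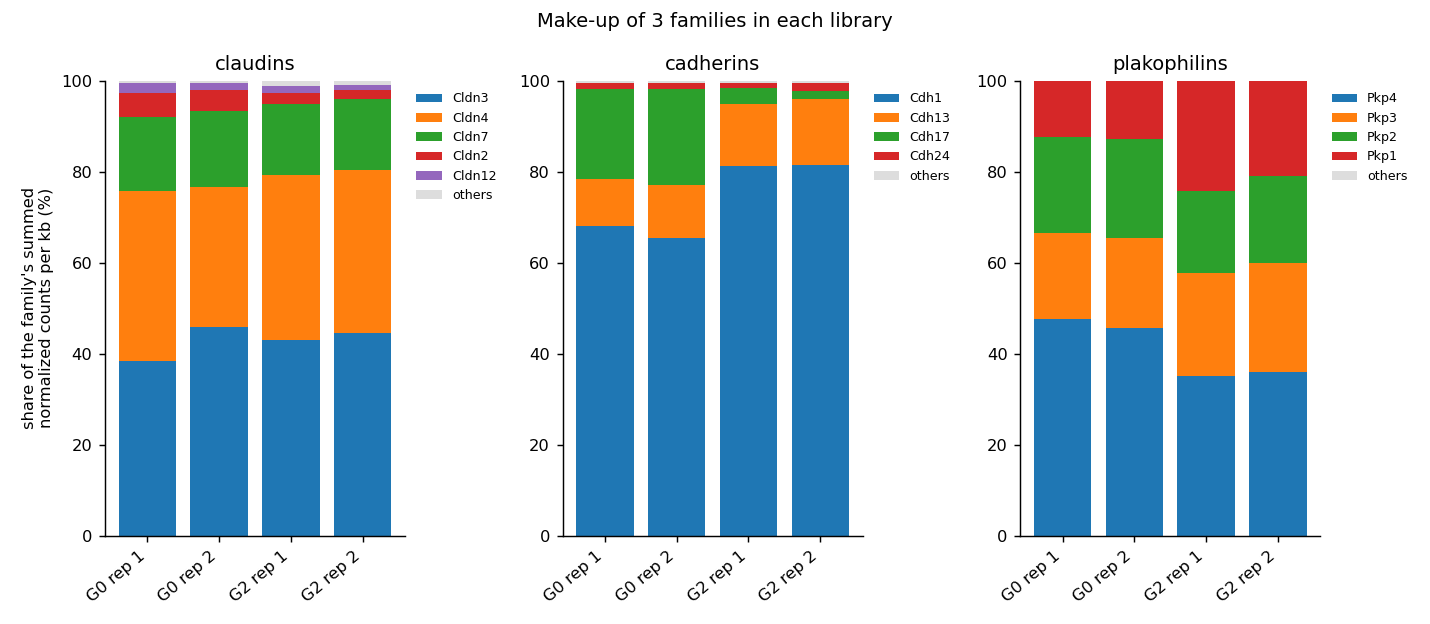
Share of the summed normalized counts per kb taken by each member (y axis, percent) in 3 families (claudins, cadherins and plakophilins), with 1 stacked bar per library. The Cdh17 share of the cadherin sum is 19.7% and 21.1% in the G0 bars and 3.43% and 1.79% in the G2 bars.

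Cdh3, the P-cadherin of basal epithelial cells and the neighbour of Cdh1 on chromosome 8, stood at 20.6 and 22.3 in G0 and 34.3 and 43.0 in G2, and was not called (log2 fold change 0.81 ± 0.37, adjusted p = 0.215). Cdh24 had values of 247.4 and 248.9 in G0 and 357.0 and 443.8 in G2 (log2 fold change 0.68 ± 0.19, adjusted p = 0.0705), and Cdh11, a mesenchymal cadherin, 78.6 and 52.8 against 108.9 and 87.0 (adjusted p = 0.282). The catenins were not called either, and 0 of the 2 had an unadjusted p under 0.05 in limma's test. Ctnna1, which links cadherin complexes to actin, stood at 9546.0 and 10651.7 in G0 and 9363.9 and 10027.8 in G2, and Ctnnd1, which keeps cadherin at the membrane, had a log2 fold change of 0.27 ± 0.17 (adjusted p = 0.348).

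The desmosomal cadherins differed in both directions. Dsg3, a desmoglein of the basal layers of stratified epithelia such as skin and oral mucosa, and Dsg4, a desmoglein of hair and upper skin layers, were higher in G2, while the desmocollin of simple epithelia, Dsc2, was lower. Dsg3 (chr18:20510274-20541310) stood at 12.8 and 11.2 in G0 and at 116.0 and 104.6 in G2. The G2 lines agreed closely and lay 9.21-fold above G0 (log2 fold change 3.10 ± 0.34, limma adjusted p = 0.00301). Dsg4 (chr18:20436175-20471821) stood at 0 and 1.0 in G0 and at 36.3 and 30.3 in G2. With 1 count in G0, the ratio of G2 to G0 was 65.6 with a 95% exact counting interval of 11.6 to 2670 (log2 fold change 4.59 ± 0.61, limma adjusted p = 0.00587). It was 32.8 without G0 replicate 1, and without G0 replicate 2 the G0 level was 0.

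Dsc2 (chr18:20030633-20059554) stood at 1104.6 and 925.4 in G0 and at 682.8 and 566.9 in G2. The 1.62-fold lower mean passed narrowly (log2 fold change -0.70 ± 0.17, limma adjusted p = 0.0453). It missed the threshold with total-count scaling, at an adjusted p of 0.0843, and with no filter on low values, at 0.0686. Dsg2, the desmoglein of simple epithelia, was the main desmoglein of every line, at 99.6% of the desmoglein sum per kb in both G0 lines and 96.3% and 96.4% in the G2 lines. Its own log2 fold change was 0.16 ± 0.14 (adjusted p = 0.482). Per kb, each 100 Dsg2 transcripts were accompanied by 0.303 and 0.307 Dsg3 transcripts in G0 and by 2.55 and 2.47 in G2, and by 27.8 and 27.0 Dsc2 transcripts in G0 and 15.9 and 14.2 in G2. Dsc3, which pairs with Dsg3 in stratified epithelia, had 0 to 2.0 normalized counts in each library and was not tested. The 8 desmoglein and desmocollin genes of the table lie in one cluster on chromosome 18, and the near-identical Dsg1 copies make Dsg1a and Dsg1c counts uncertain.

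Plakophilins bind the tails of desmosomal cadherins. Pkp1 (chr1:135871394-135919207), the plakophilin of stratified epithelia, stood at 1078.1 and 1281.9 in G0 and at 2226.8 and 1819.1 in G2. Both G2 lines lay above both G0 lines, by 1.71-fold (log2 fold change 0.78 ± 0.16, limma adjusted p = 0.0290), and with no filter on low values the adjusted p was 0.0507. Pkp4 went the other way without passing, at 4754.4 and 5304.5 against 3709.2 and 3606.8 (log2 fold change -0.46 ± 0.13, adjusted p = 0.0743). Pkp1 was 12.4% and 12.7% of the plakophilin sum per kb in G0 and 24.3% and 20.9% in G2, and Pkp4 was 47.6% and 45.6% in G0 and 35.1% and 36.0% in G2. Pkp2 and Pkp3, which serve simple and stratified epithelia, had log2 fold changes of -0.28 ± 0.15 and 0.20 ± 0.15 and were not called.

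The linker proteins were not called. Dsp, desmoplakin, which ties desmosomes to keratin filaments, stood at 6623.9 and 6384.3 in G0 and at 11051.1 and 8233.2 in G2. The groups did not overlap, and the test was not passed (log2 fold change 0.55 ± 0.17, limma adjusted p = 0.0950). Jup, plakoglobin, stood at 12301.3 and 13828.1 in G0 and 15082.0 and 12554.5 in G2, and the groups overlapped (log2 fold change 0.08 ± 0.17).

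Some markers of stratified epithelium were higher in G2 beside Dsg3, Dsg4 and Pkp1, and others were not. Of 11 such markers tested, 5 were higher in G2 (Krt13, Krt14, Krt15, Krt6a and Lor) and 1, Krt4, was lower. This is 54.5%, against 10.5% of all genes tested. Krt1, Krt5, Krt10, Ivl and Trp63 were not called. Krt13 stood at 205.2 and 309.8 in G0 and at 7043.3 and 2034.1 in G2, and Lor at 47.1 and 52.8 against 4667.3 and 693.0. Krt5, at 1.0 to 9.1, and Trp63, at 0 in 3 libraries and 12.1 in G2 replicate 1, which define basal cells, were near 0. The summed marker level was 25151.4 and 34356.4 in G0 and 24674.8 and 8476.5 in G2. Krt4 alone had 24041.9 and 33254.2 normalized counts in G0 and 7673.6 and 2332.2 in G2. The part of these markers in the desmosome results was not tested.

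**Figure D3:**
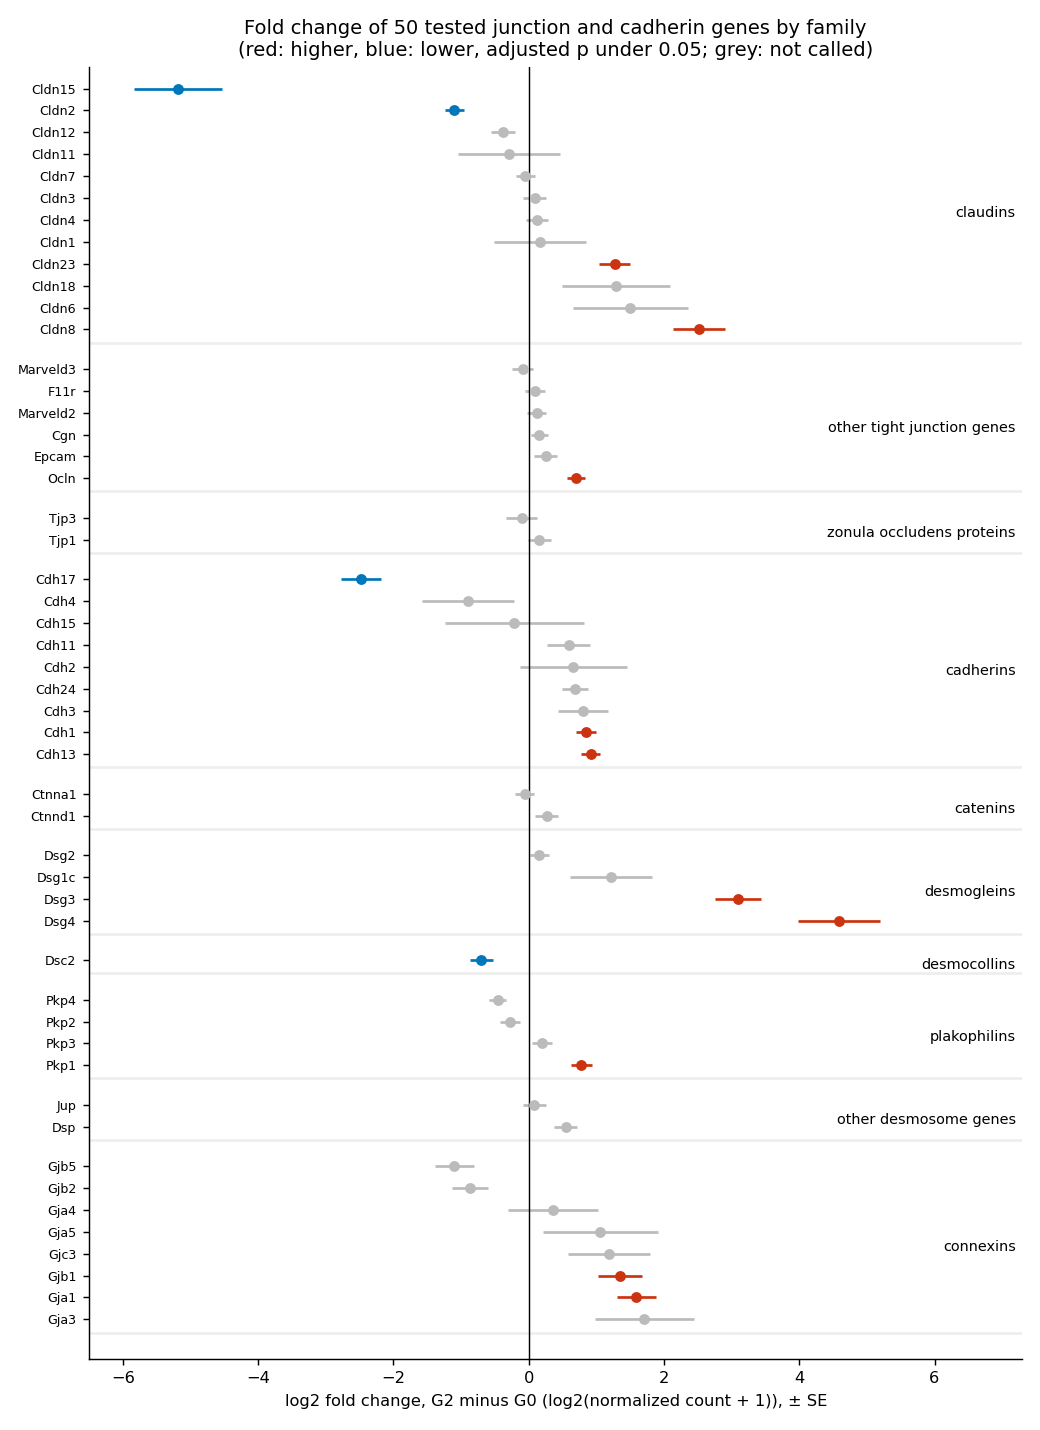
Log2 fold change of G2 against G0 for 50 tested junction and cadherin genes, by family (x axis). Bars are standard errors, and colour marks genes past the threshold. The desmogleins Dsg3 and Dsg4 lie at 3.10 and 4.59 and Cldn15 at -5.18, while Tjp1, Tjp3 and the catenins lie between -0.10 and 0.27.

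Connexin genes higher in G2 were Gja1 and Gjb1. Gja1 (chr10:56377300-56390419), the most widely expressed connexin of the body, stood at 472.3 and 253.9 in G0 and at 1135.6 and 955.0 in G2. The G0 lines differed 1.86-fold from each other, and both lay below the G2 lines, which were 2.88-fold higher in the mean (log2 fold change 1.59 ± 0.29, limma adjusted p = 0.0181). Gjb1 (chrX:101376376-101385629), known as the liver connexin, stood at 37.3 and 56.9 in G0 and at 115.0 and 123.2 in G2. It was 2.53-fold higher (log2 fold change 1.35 ± 0.32, limma adjusted p = 0.0412), and with no filter on low values the adjusted p was 0.0711. The share of Gja1 in the connexin sum per kb was 13.2% and 7.26% in G0 and 26.7% and 24.7% in G2.

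Gjb5, a connexin of stratified epithelia, had 125.7 and 135.1 normalized counts in G0 and 71.6 and 50.8 in G2, just short of the threshold (log2 fold change -1.10 ± 0.29, limma adjusted p = 0.0579). With genes of a mean under 10 left out of the test, its adjusted p was 0.0463. Gjb2 stood at 106.0 and 127.0 against 65.6 and 60.6 (adjusted p = 0.0920). Of 11 connexins tested, 2 were higher and 9 not called by limma's adjusted p, and 4 had an unadjusted p under 0.05. Over all genes tested, 10.5% passed and 26.8% had an unadjusted p under 0.05. Gja3, Gja4, Gja5 and Gjc3 were low, at 1.0 to 60.6 normalized counts. The highest of these values was Gja5 in G2 replicate 2, where G2 replicate 1 had 9.1, and some exons of Gja5 overlap Gpr89.

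Partner genes of the junctions were taken from lists of textbook members. Of 25 tight junction partners tested, 1 was higher and 2 lower (12%, near the 10.5% of all genes tested), with a median log2 fold change of 0.06. Arhgef2, an exchange factor for RhoA held at tight junctions, was 1.95-fold higher (log2 fold change 0.95 ± 0.14, limma adjusted p = 0.00837). Mpdz, a scaffold with many PDZ domains, stood at 205.2 and 128.0 in G0 and at 27.2 and 28.3 in G2 (log2 fold change -2.50 ± 0.33, limma adjusted p = 0.00590), and Ildr1, a protein of junctions where 3 cells meet, was 1.68-fold lower (adjusted p = 0.0184). Among 19 adherens junction partners, with a median of 0.31, 1 was higher and 1 lower, which at 10.5% is the share over all genes. Nectin4, an adhesion molecule, was 1.95-fold higher (adjusted p = 0.0249). Ctnna2, the neuronal alpha-catenin, was lower (17.7 and 14.2 in G0, 0 and 1.0 in G2). Of 4 desmosome partners, with a median of 0.55, Evpl, the envoplakin of the cornified envelope, was 1.68-fold higher (adjusted p = 0.0262). By limma's adjusted p, 0 of 11 other cadherin superfamily genes, 0 of 3 other connexin and pannexin genes and 0 of 17 junction proteases, ligases and contractility genes passed. At an unadjusted p under 0.05 the counts were 4, 0 and 3, where 26.8% of all genes tested had such a p.

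**Figure D4:**
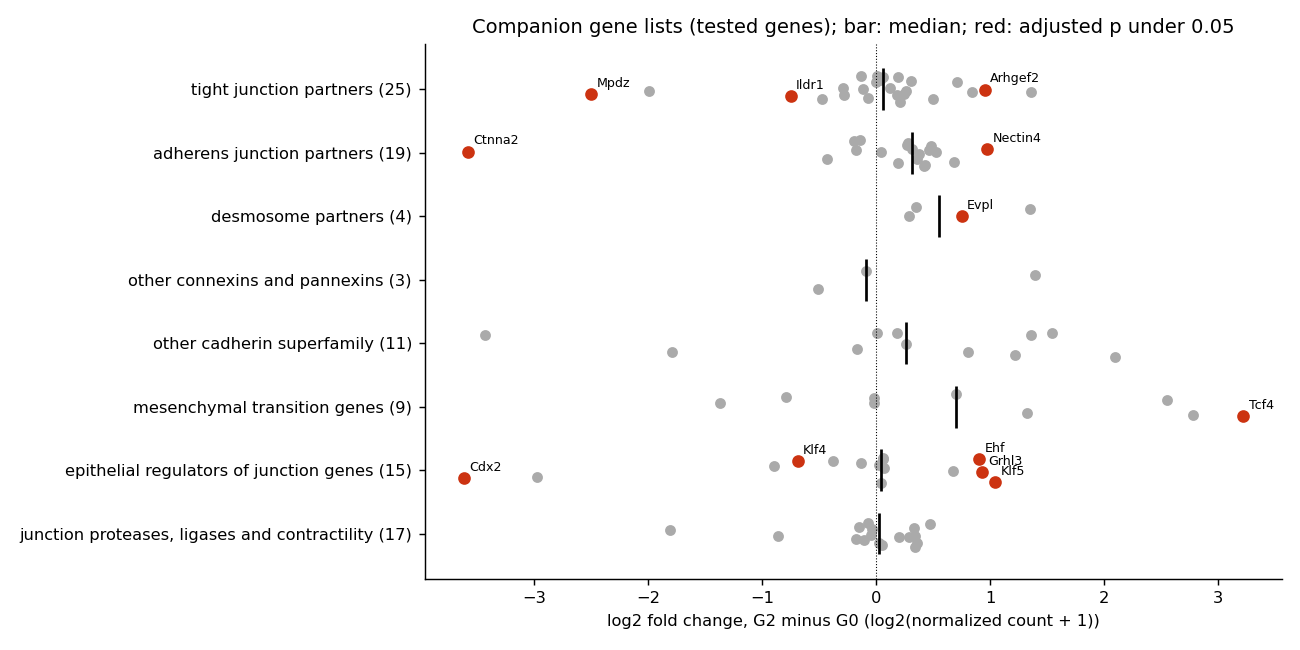
Log2 fold change of G2 against G0 for the tested genes of each partner and regulator list, with 1 point per gene, a bar at each list's median and the genes past the threshold in red. The list medians lie between -0.09 and 0.70, with Cdx2 at -3.62 and Tcf4 at 3.22.

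Transcription factors known to act on junction genes were followed in a list of 15, of which 3 were higher and 2 lower (33.3%, against 10.5% of all genes tested), with a median of 0.04. Cdx2, the intestinal homeobox factor known to act on Cdh17 and Cldn2, stood at 2394.9 and 3198.8 in G0 and at 270.3 and 186.7 in G2, 12.2-fold lower (log2 fold change -3.62 ± 0.23, limma adjusted p = 0.00043). Klf5, a factor of proliferating crypt cells, was 2.06-fold higher, Ehf, an epithelial ETS factor, 1.86-fold and Grhl3, a grainyhead factor of skin barrier formation, 1.91-fold. Klf4, a factor of differentiated epithelium, was 1.63-fold lower. Of 9 mesenchymal transition genes, with a median of 0.70, Tcf4 was the only one called (11.1%, near the 10.5% of all genes tested). The gene at that median, Foxc2, was near 0, at 2.0 to 6.8 normalized counts. Tcf4 stood at 159.1 and 123.9 in G0 and 1423.0 and 1213.0 in G2 (log2 fold change 3.22 ± 0.19, limma adjusted p = 0.000357). Whether these factors had a part in the junction gene differences was not tested.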

How the data were processed

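Bulk RNA-seq of 4 colonoid lines (2 G0, 2 G2) was analysed from 1 table. Per the submitters' processing notes, the genome build was mm10 and the tools were DESeq2 1.32.0, StringTie 2.1.1, HISAT2 2.1.0, bcl2fastq 2.20.0 and R 3.5.2. The sources used here give no annotation, strand setting or read filter. By the values, the authors deposited variance-stabilized log2 values with a shared lowest value of 6.508 in each library. Inverting that transformation gave normalized counts, and 1 size factor per library made 100% of them whole numbers within a tolerance of 0.001. StringTie was named, so these whole numbers may be rounded estimates, and no count model was used. The planned test for normalized values applied, although the plan had not foreseen this scale.

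Tests used limma 3.58.1 in R 4.3.3 (eBayes with an intensity trend, two-sided, group as the only term) on log2(normalized count + 1). It covered the 13981 genes averaging 1 normalized count or more, with Benjamini-Hochberg adjustment over all of them and a threshold of 0.05. Every adjusted p is from this fit unless another setting is named. Fold changes in words are ratios of mean normalized counts, and the log2 scale with its pseudocount of 1 understates changes of low genes. Exact 95% intervals cover counting error only. Transcript lengths came from GENCODE (mm10) and gene positions from RefSeq, and both covered all 78 genes. Per kb values divide by the mean coding transcript length. The fit was tested on simulated data.

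The genes, lists and tests were chosen with earlier results of these data known. The text names every gene past the threshold, the 2 most abundant per kb of each family, 13 core junction genes, up to 12 genes without a call whose groups did not overlap, up to 4 called genes per partner list, the 3 most abundant genes of each marker list where a result needed them, and Tert. Marveld2, Marveld3, Cdh5, Cdh2, Dsg1a and Dsg1c, Apba3, Ptprc, Klf4, Cldn1, Cldn6, Cldn7, Cldn11, Cldn18, Cdh4, Cdh15, Gja3, Gja4, Gja5, Gjc3, Gpr89, Krt14, Krt15, Krt6a, Krt5, Trp63 and the Y-linked transcripts were named outside that rule, after their values were seen. Some genes are not reported here by name, although they entered the fit and the counts. Alternatives changed the pseudocount, the filter, the scaling, the trend, the replicate block and the libraries kept.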

Additional observations from a re-analysis of the deposited data

How the results depend on the processing

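The 14 called genes kept their direction under all 13 alternatives, which only the changes of scaling could have turned, as the groups did not overlap. All 14 stayed past the threshold with pseudocounts of 0.5 and 5, the deposited values, a mean of at least 10 and upper-quartile scaling. With total-count scaling 13 did, with no filter on low values 11 and with no intensity trend 5. Without the trend, 4 genes were higher and 1 lower, and 623 genes of the whole table passed. With the replicate block 12 junction and cadherin genes were higher and 8 lower, and 3503 of all 13981 genes tested passed. All 14 called genes stayed, and Cdh24, Cldn12, Dsp, Gjb2, Gjb5 and Pkp4 were added. The labels name nothing but a number that the same-numbered lines share. The deviations of these lines from the group means correlated at 0.109 over 13981 genes, and 2 pairs cannot show whether they share more. Leaving out 1 library gave 0 to 0 higher and 0 to 0 lower junction and cadherin genes by limma's adjusted p, and 0 to 2 genes of the whole table. At an unadjusted p under 0.05 it gave 12 to 14 higher and 4 to 6 lower. Each such fit has 3 libraries, and the lone library is assumed to vary like the other group. Of the 21 genes without a call that were followed through the alternatives, 6 turned direction. Genes named outside the naming rule were not followed. Leaving out a library gave log2 fold changes of -0.06 to 0.24 for Cldn3, -0.05 to 0.21 for Jup, -0.03 to 0.22 for F11r, -0.03 to 0.36 for Tjp1, -0.44 to 0.25 for Tjp3 and -0.14 to 0.02 for Ctnna1, which was 0.01 with total-count scaling. The cause was not tested. A floor of 3 counts per library was set, not measured, and levels under it are uncertain at this depth.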
